A study of Oryza sativa with 6 samples.

Results

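Rice panicles transcribed 256 loci that lie outside the gene annotation, carry no protein domain description and reached a clearly measurable level. They are 256 of the 1854 newly assembled loci without a description, of 2524 newly assembled loci and of 39367 genes in the deposited table. The 256 were chosen by 3 entries of that table: an identifier of the kind given to newly assembled loci, an empty description, and a mean of at least 5 FPKM (fragments per kilobase of locus length, scaled by a constant for each library) over the 6 libraries. Their level is therefore a condition of the choice and not a result. The table gives these loci a running number, and each is named here by that number with its coordinates in the deposited table; no source used here names the genome build. None of the 256 had a gene name, a biotype or a transcription factor family in the table.

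Newly assembled loci come from read alignments that pile up, or are spliced together, where the annotation lists no gene. As background, such transcripts can be long non-coding RNAs, messages for short or poorly conserved proteins, transposon remnants, or unlisted ends of neighbouring genes. A locus without a recognised domain cannot be placed in one of these kinds from its level alone, and no sequence of these loci was used here. In plants, many long non-coding RNAs are known to be restricted to single tissues, reproductive organs among them.

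The panicles came from 2 genotypes, and all had been in the cold for 1 day, under a treatment the labels abbreviate CS-PT. The first genotype is CTB3-cr1, which the labels call a knockdown of CTB3 and the column headings abbreviate KO. The second is wild-type Nipponbare, a japonica rice cultivar; the labels do not give the background of CTB3-cr1. Each had 3 biological replicates. CTB3-cr1 is a single line, so an effect of CTB3 and any other difference of the line cannot be told apart. No sample without cold was analysed here, and the level of CTB3 was not checked because the sources do not tie the name to an identifier.

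Libraries held between 14422565 and 16982031 counts. The 11 MADS-box genes fixed as floral markers, which specify floral organs, were all detected, at 11.4 to 301.2 FPKM in single libraries, and their sum ranged from 1119 to 1269 in CTB3-cr1 and from 1019 to 1375 in Nipponbare. The sum of 3 leaf genes was 269 to 282 FPKM against 244 to 518, and that of 2 endosperm storage protein genes 4.70 to 7.81 FPKM against 4.82 to 6.46. The 4 anther and tapetum markers summed to 402 to 821 FPKM in CTB3-cr1 and 1237 to 3018 in Nipponbare. For 4 of the 4 every CTB3-cr1 library was the lower, and Os11g0582500 among them ran from 32.7 to 1885 FPKM. In CPM, 5.36% of all tested genes were lower without overlap and 5.11% higher. Among the floral markers only Os07g0108900 was apart, at 123 to 133 FPKM in CTB3-cr1 against 108 to 119. In bulk panicles, fewer cells of a type and less RNA per cell cannot be told apart. Nipponbare replicate 2 stood farthest out on the first principal component of all tested genes, with a score of 80.3 against -54.8 to 17.2 in the other 5 libraries.

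Most of the 256 loci were expressed at modest levels. Their median was 10.5 FPKM, with quartiles of 7.07 and 19.1, against a median of 18.6 FPKM over the 16378 annotated genes past the same threshold and 10.6 FPKM over the 109 newly assembled loci that do have a domain description. Between 5 and 10 FPKM lay 117 loci, 78 lay between 10 and 20, 47 between 20 and 50, 10 between 50 and 100, and 4 above 100. In counts, the locus means ran from 19.0 to 5485 per library with a median of 261, against 475 for the annotated genes. The 256 loci together took 0.628% to 0.760% of a library's counts.

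**Figure D1:**
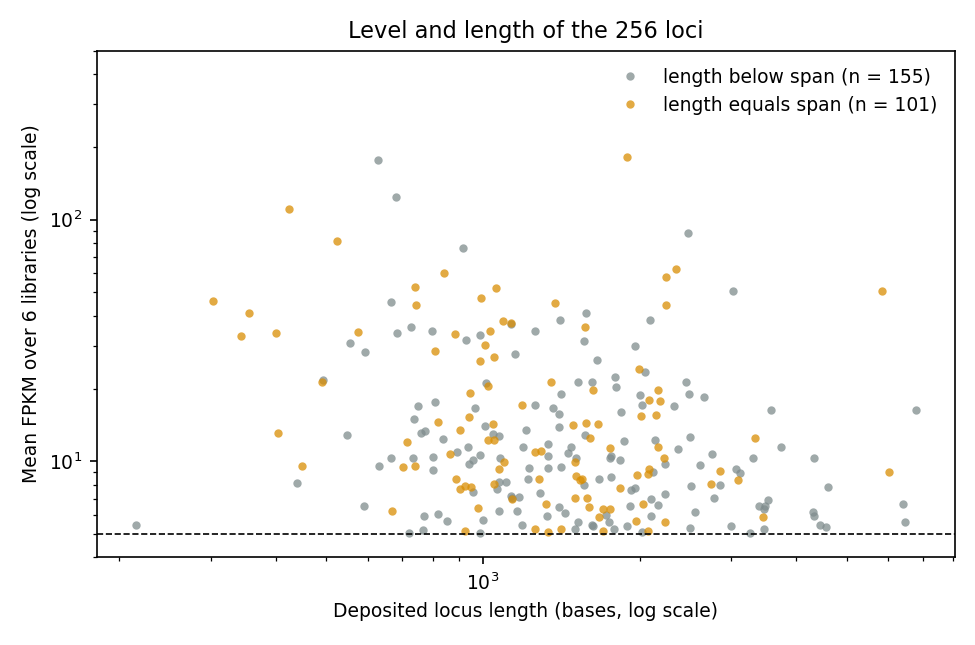
Mean FPKM over the 6 libraries (log scale) against deposited length in bases (log scale) for the 256 loci, each point 1 locus, coloured by whether the length equals the span on the chromosome. The dashed line marks the 5 FPKM that chose the loci; the few points above 100 FPKM include loci of 423 to 1891 bases.

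The threshold cut through a continuum. Just inside it stood locus 722 at 5.06 FPKM, locus 2089 at 5.07 and locus 432 at 5.07, and just outside stood locus 1425 at 4.98, locus 2227 at 4.96 and locus 2425 at 4.95. Locus 2227, on chromosome 8, missed the mean although its CTB3-cr1 libraries read 6.12, 9.31 and 9.11 FPKM, because its Nipponbare libraries read 1.82, 2.52 and 0.862. Of the 256, 191 were at or above 5 FPKM in every library and 254 had at least 1 count in every library. In 237 the mean of each genotype reached 5 FPKM, in 15 only that of CTB3-cr1 did, and in 4 only that of Nipponbare. Of these 19, 13 had both genotype means near the threshold, with a difference of less than 1 on the log2 scale.

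The 8 most abundant loci were expressed in every library. Locus 959, on the plus strand of chromosome 2 from 30859028 to 30860918, led with 128.0, 195.7 and 176.9 FPKM in CTB3-cr1 and 224.9, 211.9 and 150.4 in Nipponbare. Its nearest annotated gene, Os02g0738900, lies 757 bases away on the other strand and averaged 40.8 FPKM. Locus 2378, on chromosome 9 from 12397845 to 12399787, read 141.1, 209.3 and 181.6 FPKM against 208.8, 187.3 and 131.8. For both loci the genotypes overlapped, and the lowest library was CTB3-cr1 replicate 1 at the first and Nipponbare replicate 3 at the second.

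Locus 1992, on chromosome 7 from 16763872 to 16769626, read 113, 150.1 and 118 FPKM in CTB3-cr1 and 131, 121 and 107 in Nipponbare. Its deposited length is 681 bases, so most of its span is left out as introns or gaps. Locus 1794, on chromosome 6 from 24528027 to 24528449, is only 423 bases long and had 91.8, 105 and 125 FPKM against 127, 107 and 106. It lies 195 bases from the start of Os06g0613500, on the other strand, which averaged 222 FPKM.

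Locus 324, on chromosome 10 from 11758011 to 11761381, had 87.7 FPKM ± 15.5 (SD, n = 3) in CTB3-cr1 and 88.5 FPKM ± 6.87 (SD, n = 3) in Nipponbare. Locus 1875, on chromosome 6 from 16700581 to 16703324, had 78.0 FPKM ± 10.9 (SD, n = 3) against 74.8 FPKM ± 4.39 (SD, n = 3). Locus 778, on chromosome 12 from 1772370 to 1774721, had 67.4 FPKM ± 17.2 (SD, n = 3) against 57.0 FPKM ± 6.62 (SD, n = 3). In these 3 loci the difference was smaller than the spread within CTB3-cr1.

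Locus 605 was the one of the 8 whose genotypes did not overlap, beside 5.11% (CTB3-cr1 higher) and 5.36% (lower) of all tested genes. It lies on the minus strand of chromosome 11 from 9627160 to 9627683 and read 78.4, 72.1 and 75.8 FPKM in CTB3-cr1 against 83.6, 89.4 and 90.3 in Nipponbare. The difference, -0.22 ± 0.10 (SE) on the log2 scale, did not pass over all genes (edgeR adjusted p = 0.953). Across the 8, log2 fold changes ran from -0.23 to 0.24 and none passed. The 8 loci held 15.7% of the counts on the 256.

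**Figure D2:**
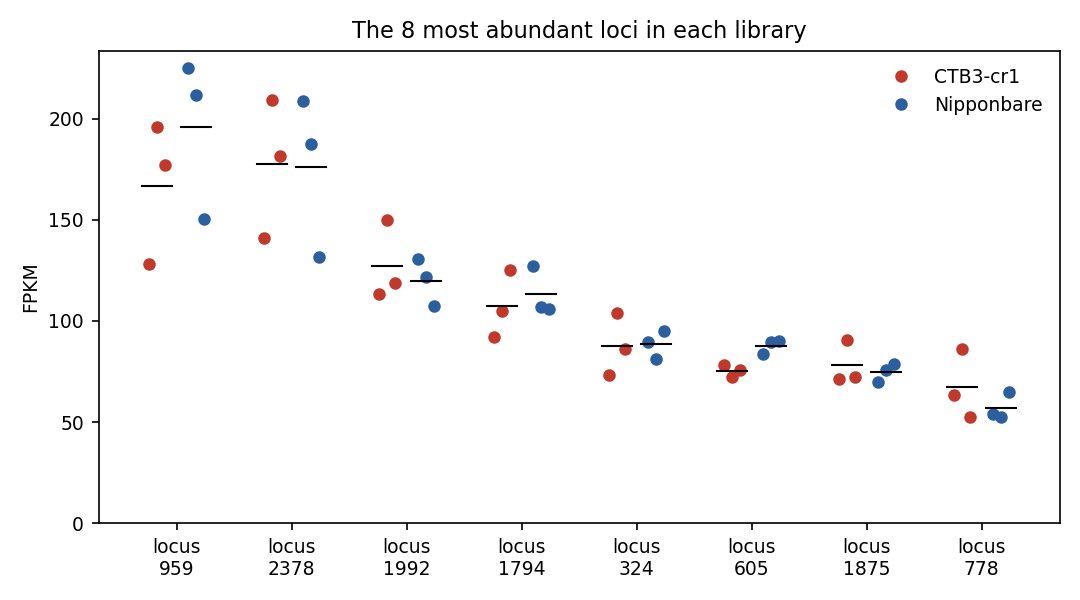
FPKM of the 8 most abundant loci in each of the 6 libraries, 3 points per genotype with a bar at the mean. Levels fall from about 181 FPKM at locus 959 to 62.2 at locus 778, and at locus 605 alone the 2 sets of points are apart.

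The loci were short to mid-sized transcripts. Deposited lengths ran from 215 to 6790 bases with a median of 1408, against 1536 for the annotated genes and 1926 for the newly assembled loci with a domain. Lengths under 500 bases were found in 11 loci, from 500 to under 1000 in 61, from 1000 to under 2000 in 114, and of 2000 or more in 70. In 101 loci, or 39.5%, the length equalled the span on the chromosome, so nothing was left out as an intron, against 17.5% of the annotated genes and 16.5% of the new loci with a domain. In the other 155, a median of 917 bases of the span was left out.

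Level and length went weakly in opposite directions, with a Spearman rho of -0.25 across the 256 loci, which share the same libraries and whose FPKM is itself divided by length. The longest, locus 172, covers chromosome 1 from 6738202 to 6763946 with 6790 transcribed bases and averaged 16.4 FPKM. The next, locus 630 on chromosome 11 with 6468 bases, averaged 5.63 FPKM and ranged from 5.13 to 6.26 over the 6 libraries. Among the shortest, locus 830 on chromosome 12, with 303 bases, reached 36.8 to 53.0 FPKM. Locus 2348 on chromosome 9, with 215 bases, rested on 10 to 36 counts a library.

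The loci were spread over the whole genome. Each of the 12 chromosomes held between 13 loci, on chromosome 10, and 38, on chromosome 1, 253 in all. Relative to the number of genes in the table, the range was from 4.34 loci per 1000 genes on chromosome 3 to 8.73 on chromosome 9. None lay on the organelle genomes, and 3 lay on unplaced sequences, where locus 2521 read 14.7, 19.9 and 16.2 FPKM in CTB3-cr1 and 17.5, 19.5 and 18.3 in Nipponbare. The plus strand held 118 of the 256. They were rarely clustered: locus 171 and locus 172, on the same strand of chromosome 1, were 213 bases apart, locus 831 and locus 832 on chromosome 12 were 2394 bases apart, and no other pair was within 5000 bases.

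None of the 256 overlapped an annotated gene in the deposited coordinates. The same held for the 106 loci with a domain past 5 FPKM and the 1578 undescribed loci below it. Those counts cover loci that share a sequence with an annotated gene. No source used here says whether overlapping loci were removed beforehand, so the lack of overlap is not read as a result. The distance to the nearest annotated gene had a median of 2219 bases over the 253 loci that share a chromosome with one, with quartiles of 535 and 5501. It was within 100 bases for 21 loci, within 1000 for 92 (36.4%), and over 10000 for 34. Of the 92, 28 were on the same strand as that gene, 12 of them beyond its 3′ end and 16 before its 5′ end. The other 64 were on the opposite strand, 41 beyond the 3′ end and 23 before the 5′ end.

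The nearest annotated genes, which were not chosen by level, had a median of 3.88 FPKM. Levels of locus and neighbour were only weakly related (Spearman rho 0.11 across 181 pairs with both tested). Their log2 fold changes between the genotypes were not (rho 0.02 across the same 181 pairs, all from the same libraries). For new loci with a domain past 5 FPKM, the rho of log2 fold changes was 0.31 across 84 pairs. For undescribed loci under 5 FPKM it was 0.15 across 666 pairs. The library kit named in the labels does not mark strand and no source used here states how the counting treated it, so the strand printed for a locus and its separation from a close neighbour are uncertain.

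Between libraries, the loci varied slightly more than annotated genes. The median SD of log2 CPM (counts scaled to a common library size) was 0.22 within CTB3-cr1 and 0.22 within Nipponbare, against 0.19 and 0.19 for annotated genes past 5 FPKM, which also had more counts. CTB3-cr1 replicate 2 was the highest library at 90 loci (35.2%, against 16.9% of all tested genes), and Nipponbare replicate 3 was the lowest at 76 (29.7%, against 20.3%). The median deviation of the 256 loci from their own 6-library mean was 0.11 (log2) in CTB3-cr1 replicate 2 and -0.12 in Nipponbare replicate 3. In the other libraries it was -0.02 and 0.00 in CTB3-cr1 replicates 1 and 3 and 0.03 and -0.07 in Nipponbare replicates 1 and 2. Replicates of a genotype thus differed among themselves by as much as the genotypes did.

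**Figure D3:**
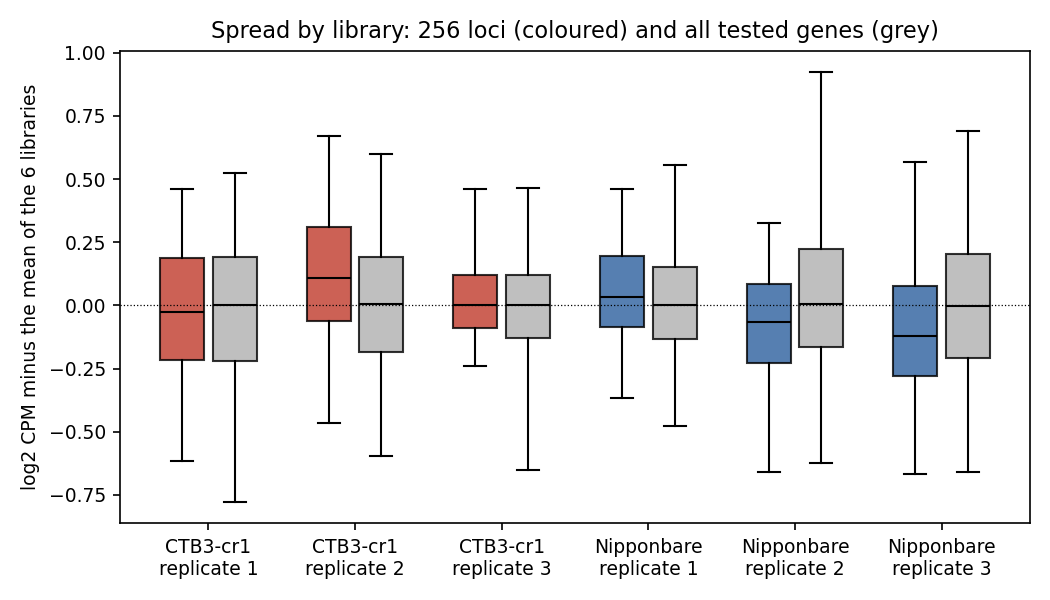
Deviation of log2 CPM from the gene's own mean over 6 libraries, by library, for the 256 loci (coloured) and all tested genes (grey); boxes span the quartiles with the median as a line, and whiskers the 5th to 95th percentiles. The coloured median is highest in CTB3-cr1 replicate 2, at 0.11, and lowest in Nipponbare replicate 3, at -0.12, while the grey medians stay near 0.

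The genotype comparison asked which of these loci are transcribed at different levels in CTB3-cr1 and Nipponbare panicles in the cold. Of the 256, 2 passed the edgeR quasi-likelihood test at a threshold of 0.05 on the adjusted p, both higher in CTB3-cr1, beside 0.078% of the 25636 genes tested in either direction and 0.0624% in that direction. Both loci are almost silent in Nipponbare and passed the FPKM threshold, and the filter on low counts, only through CTB3-cr1, so a locus of this kind had to differ to be among the 256. Of the 20 genes called over the whole table, 5 are newly assembled loci, 2 of them these and 3 with a domain description. Newly assembled loci are 2524 of the 39367 genes there, and their share among the tested genes was not taken. The 3 averaged under 5 FPKM, since none of the 109 loci with a domain past that level was called. Nothing about newly assembled loci is read from this count. All 256 loci passed the filter and were tested.

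Locus 829, on the minus strand of chromosome 12 from 19586760 to 19587749, was counted 1160, 1872 and 1587 times in the CTB3-cr1 libraries and 0 times in each Nipponbare library. In CPM that is 75.3, 116.1 and 92.7 against 0, and with the Nipponbare group set at 3 counts in total, its floor, the level was at least 1470-fold higher in CTB3-cr1 (edgeR adjusted p = 0.00278). Only 14 of the 256 loci had a higher mean FPKM. Its length of 990 bases equals its span. The nearest annotated gene is Os12g0509100, a conserved hypothetical protein 9246 bases away on the other strand, whose log2 fold change was -0.37 ± 0.27 (SE) with an edgeR adjusted p of 0.996.

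Locus 1848, on the minus strand of chromosome 6 from 9409135 to 9410084, was counted 199, 319 and 214 times in CTB3-cr1 and 0, 1 and 1 times in Nipponbare. The ratio was 350-fold in favour of CTB3-cr1 with a 95% exact counting interval of 96.4 to 2892 (edgeR adjusted p = 0.00278). It is 950 bases long, again equal to its span. It ends 755 bases from the 3′ end of Os06g0275900, a gene for the adaptor protein kanadaptin with a forkhead-associated domain, which binds phosphorylated threonines. That gene stood at 9.79, 10.3 and 9.71 FPKM in CTB3-cr1 and 12.4, 11.96 and 13.9 in Nipponbare, so its Nipponbare libraries are the higher ones, and its log2 fold change of -0.36 ± 0.11 (SE) did not pass (edgeR adjusted p = 0.751).

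No gene near either locus was called. Within 50000 bases of locus 829, 6 other genes were tested, with a median log2 fold change of -0.00 and a range of -0.90 to 2.21. Within the same distance of locus 1848, 5 were tested, from -0.36 to 0.13. Of these 11 genes, 0 were called by edgeR and 2 had an unadjusted p under 0.05. The window was chosen after these loci were known. Both calls held in the 18 other settings tried, with edgeR, DESeq2 or limma adjusted p of at most 0.0486 for locus 829 and 0.0306 for locus 1848.

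**Figure D4:**
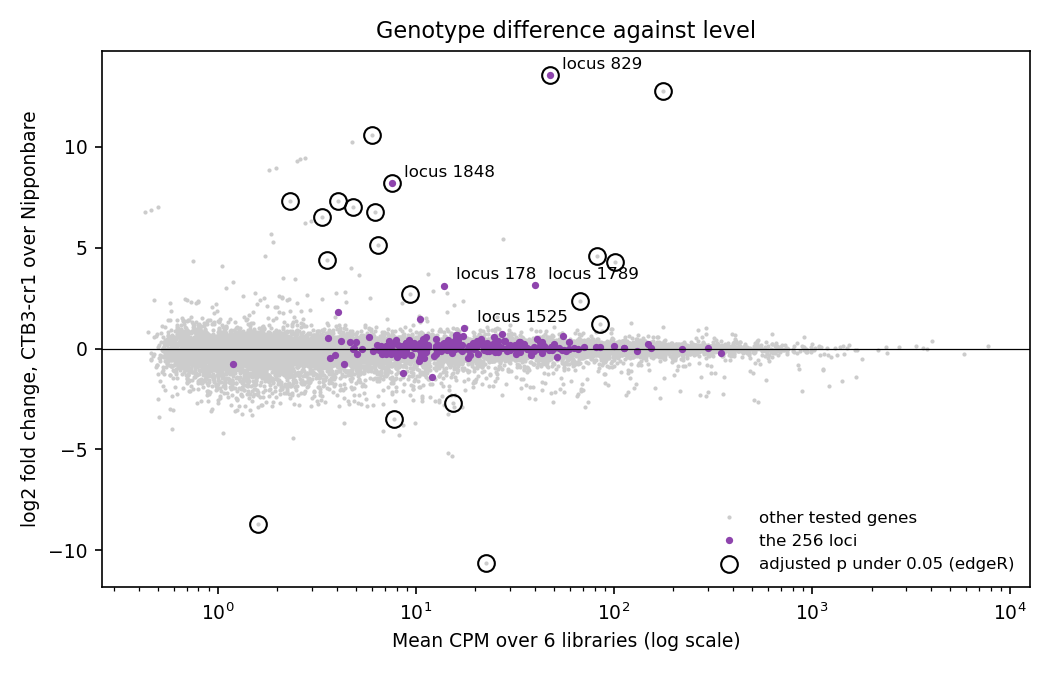
Log2 fold change of CTB3-cr1 over Nipponbare against mean CPM over 6 libraries (log scale) for the 256 loci (purple) and the other tested genes (grey), with circles around the genes that passed an adjusted p of 0.05 in edgeR. The purple points gather around 0 with 7 at or above 1 and 2 at or below -1, and of them only locus 829 and locus 1848 are circled; the fitted value of locus 829 depends on the prior count because Nipponbare had 0 counts.

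A few more loci showed large differences that did not pass in edgeR. Locus 178, on chromosome 1 from 8289465 to 8290722, read 23.4, 28.5 and 22.9 CPM in CTB3-cr1 and 2.35, 1.23 and 4.90 in Nipponbare. The 2 sets lie far apart, with a log2 fold change of 3.12 ± 0.44 (SE), yet the edgeR adjusted p was 0.116, and without Nipponbare replicate 3 the log2 fold change was 3.80 with an adjusted p of 0.0193 (0.0514 to 0.484 in the 16 settings in which it did not pass). It lies 345 bases beyond the 3′ end of Os01g0251000, on the other strand, a gene of unknown function whose own log2 fold change was -0.07 ± 0.13 (SE).

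Locus 1789, on chromosome 6 from 23967589 to 23970604, read 81.7, 65.1 and 68.9 CPM in CTB3-cr1 and 2.10, 6.23 and 15.9 in Nipponbare. The Nipponbare libraries span a wide range and Nipponbare replicate 3 is the highest of them. The log2 fold change was 3.15 ± 0.60 (SE) with an edgeR adjusted p of 0.324, and without Nipponbare replicate 3 it was 4.14 with an adjusted p of 0.0485 (0.161 to 0.994 in the 16 settings in which it did not pass). No annotated gene lies within 10000 bases of it, the nearest being 16932 bases away.

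Locus 1525, on chromosome 4 from 31603501 to 31605476, read 23.6, 21.5 and 25.7 CPM against 14.5, 10.4 and 10.04. The groups are apart, at a log2 fold change of 1.02 ± 0.18 (SE), but it did not pass (edgeR adjusted p = 0.269). Locus 1805 on chromosome 6, from 26554554 to 26561224, read 31.3, 41.7 and 28.0 CPM against 24.3, 18.3 and 19.0 (0.71 ± 0.19 SE on the log2 scale). Locus 1089 on chromosome 3, from 4391623 to 4393338, read 20.4, 18.8 and 20.1 CPM against 17.6, 9.34 and 9.93, where Nipponbare replicate 1 comes close to the CTB3-cr1 libraries.

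By the authors' deposited table, 5 of the 256 have an adjusted p under 0.05, beside 0.621% of the genes with a value there, and all 5 are higher in CTB3-cr1. Of these 5, 4 (locus 829, locus 1848, locus 178 and locus 1789) reached 5 FPKM only in the CTB3-cr1 mean, so nothing about the 256 loci is read from that count. They are locus 829 (3.84e-23), locus 178 (1.63e-10), locus 1848 (5.11e-12), locus 1525 (0.00129) and locus 1789 (0.0085), with the adjusted p of the authors' deposited table in brackets. Of these, edgeR did not call locus 178, locus 1789 and locus 1525 over all 6 libraries.

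**Figure D5:**
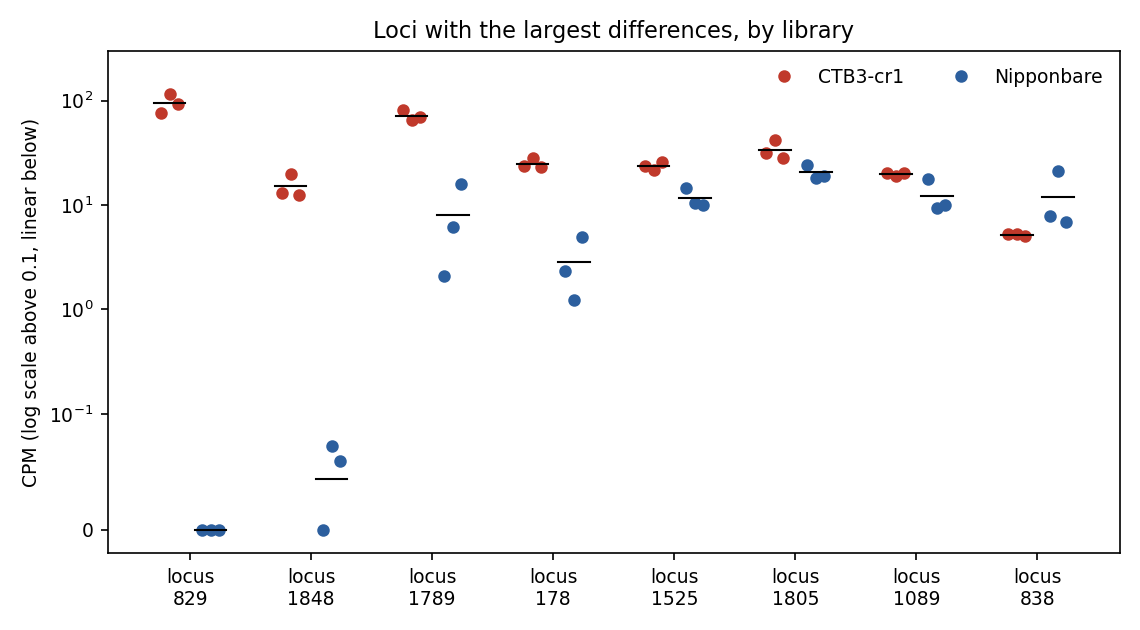
CPM by library (log scale above 0.1, linear below) for the 2 called loci, the next 5 higher and the first lower locus by size of difference among those whose genotypes do not overlap, with a bar at each mean. Locus 829 is at 0 in all Nipponbare libraries and locus 1848 below 0.1 CPM, whereas the other loci are expressed in both genotypes.

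On the lower side no locus passed in edgeR. The largest difference among loci without overlap was at locus 838, on chromosome 12 from 23539103 to 23540154. It read 5.32, 5.27 and 5.03 CPM in CTB3-cr1 and 7.89, 21.1 and 6.85 in Nipponbare, and its log2 fold change was -1.19 ± 0.43 (SE), which did not pass (edgeR adjusted p = 0.849). Nipponbare replicate 2 alone carries much of it, and without that library the log2 fold change was -0.50. Locus 2184 on chromosome 8 had a larger fitted difference of -1.42 ± 0.59 (SE), but its libraries overlapped, at 5.13, 11.0 and 3.45 CPM against 13.7, 31.1 and 7.92. This locus was picked for mention once its value was known.

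The other loci lower without overlap differed by less than 0.5 on the log2 scale. Locus 186 on chromosome 1, from 10896534 to 10898232, read 7.98, 10.3 and 9.17 CPM against 12.8, 15.1 and 10.5, so that 1 library of each genotype nearly met. Locus 1325 on chromosome 4, from 4921053 to 4921954, read 11.4, 9.99 and 11.04 CPM against 12.8, 13.7 and 14.9. Locus 459 on chromosome 11, only 15 bases from the start of Os11g0139900 on the other strand, a gene with a mitochondrial glycoprotein domain, read 8.63, 9.62 and 10.2 CPM against 10.6, 11.8 and 12.8. Locus 1189 on chromosome 3 read 30.6, 25.6 and 30.7 CPM against 34.04, 36.8 and 34.4. None of these 4 differences passed (edgeR adjusted p of at least 0.93).

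In 25 loci every CTB3-cr1 library was above every Nipponbare library, beside 5.11% of all tested genes, which is 9.77% of the 256. In 7 loci every CTB3-cr1 library was below, or 2.73% of the 256 beside 5.36% of all tested genes. Most of these differences were small: the median log2 fold change was 0.43 over the 25 and -0.31 over the 7, and 5 of the 25 and 1 of the 7 reached 1. Chromosomes 6 and 8, with 27 and 18 of the 256 loci, held 5 each of the 25, and every other chromosome held 1 or 2. The share of all tested genes by chromosome was not taken. Among the 25, loci 829, 1848, 178, 1789, 171, 2285 and 2465 reached 5 FPKM only in the CTB3-cr1 mean. Among the 7, locus 838 reached it only in the Nipponbare mean. These loci are in the list only through their higher genotype, so nothing about the 256 is read from these shares.

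Over all 256 loci the log2 fold changes centred slightly above 0. The median was 0.07, and 166 loci (64.8%) were positive, against a median of -0.00 and 49.5% over the 25636 genes tested, 0.01 and 52.8% over annotated genes past 5 FPKM, and 0.02 and 52.3% over the 109 new loci with a domain. The median was 0.08, 0.06 and 0.05 in loci of 5 to 10, 10 to 20 and at least 20 FPKM. It was 0.04 over loci whose length equals their span and 0.08 over the others, with 55.4% and 71.0% positive. This shift is within the spread between libraries given above, and it was 0.01 without CTB3-cr1 replicate 2. Leaving out replicate 1 gave 0.10 where it was that of CTB3-cr1 and 0.12 where it was that of Nipponbare. No test was made over the loci as a set. Of the 256, 15 reached 5 FPKM only in the CTB3-cr1 mean and 4 only in the Nipponbare mean. The direction of those loci was fixed by how they entered the list. Nothing about the 256 is therefore read from the share of positive loci. The anther and tapetum markers also differed between the genotypes, and their part in any of these differences was not tested.

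In 234 loci (91.4%) the genotypes differed by less than 0.5 on the log2 scale, as they did in 86.7% of all tested genes. The tested genes were not held to 5 FPKM, and the same share among annotated genes past that level was not taken. A difference of at least 1 was reached by 9 loci, 7 higher and 2 lower. Besides the loci above, these were locus 1268 on chromosome 3, at 5.32, 8.93 and 32.3 CPM against 2.99, 1.38 and 12.3, and locus 481 on chromosome 11, at 1.17, 5.03 and 12.7 CPM against 1.08, 0.0724 and 4.14. Both varied several-fold within each genotype, were highest in replicate 3 of each, and did not pass (edgeR adjusted p = 0.996 for each). An unadjusted p under 0.05 in edgeR was reached by 18 of the 256 and by 1347 of the 25636 genes.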

How the data were processed

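RNA of rice panicles was measured in 6 libraries. Tools the authors ran include fastp 0.19.7, HISAT2 and DESeq2, per the submitters' processing notes. The build, annotation, assembler, counter and strand setting are named in no source used here. The deposited table holds raw counts and FPKM per library. FPKM equalled counts over length and a constant fitted for each library to within 4.85e-08. That constant was 0.976 to 1.06 times the library's total of counts. The log2 fold changes, p-values and mean normalised signal of the deposited table are the authors', per the file headers. Of 39369 lines, 2 without an identifier (at most 0.000478% of counts) were left out.

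Counts were fitted with edgeR 4.0.16 in R 4.3.3 (filterByExpr, TMM, quasi-likelihood F test, Benjamini-Hochberg adjustment over 25636 genes, threshold 0.05). SE is the log2 fold change over the square root of F. Floors (3 counts over a group) and 95% Clopper-Pearson intervals cover counting error only. Alternatives used DESeq2 1.42.0, limma 3.58.1 (voom, and trend on log2 FPKM with a pseudocount of 1 or 0.1), other factors, filters, a replicate block and each library left out. The newer quasi-likelihood method was added after seeing the data. The scripts were tested on simulated counts.

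The loci and lists were chosen with earlier results of these data known. Named loci were those called, the 8 most abundant, up to 5 higher and 5 lower of the largest non-overlapping differences, those at the threshold, and the longest and shortest 2; others were named after their values were seen.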

Additional observations from a re-analysis of the deposited data

How the results depend on the processing

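Over 18 alternative settings, 2 loci were called in 16, locus 829 and locus 1848, which were called with the same direction in all 18. DESeq2 called 5 of the 256 loci, adding locus 178, locus 1789 and locus 1525 (DESeq2 adjusted p = 1.61e-10, 0.00838 and 0.00127). With each library left out in turn, edgeR called 2 to 4, the 4 being without Nipponbare replicate 3. The replicate block gave 2 called loci but lowered the calls over all genes from 20 to 4, while DESeq2 raised them to 202. The sample titles number the replicates but do not say whether equal numbers pair the samples. Deviations of same-numbered libraries correlated at -0.27, 0.37 and -0.07 for numbers 1, 2 and 3. Those of differently numbered libraries ranged from -0.39 to 0.47. With 3 libraries a genotype, these values cannot decide whether the samples were paired. The median log2 fold change of the loci ranged from 0.01 to 0.12 against 0.07, each shift being smaller than the SD of the replicates' medians (0.08). A threshold of 2 FPKM would give 609 loci and one of 10 FPKM 139, whereas leaving out a library gave 255 to 266. The log2 fold changes of 12 loci compared under these settings, those called or with the largest differences without overlap, kept their sign; those of the other loci and of neighbouring genes were not compared. Depth differed widely between loci, and the least covered averaged 19.0 counts a library.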
